A study of Drosophila melanogaster with 4 samples.

Results

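The genes described here are the core of the Notch pathway, 10 genes that encode the receptor, its ligands, the enzymes that act on receptor and ligands, and the nuclear proteins that carry the signal. They are N, Dl, Ser, fng, neur, kuz, Psn, Su(H), mam and H. Each was looked up by its exact symbol in the authors' deposited table of genes with Prospero binding peaks, which names 1510 unique gene identifiers. There were 5 core genes in the table, N, Dl, fng, neur and mam, and 5 that were not in it, Ser, kuz, Psn, Su(H) and H. The chromosome arms carry 13946 annotated protein-coding genes, of which 7.76% were in the table (exact 95% interval 7.32 to 8.21).

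The series mapped chromatin proteins by targeted DamID in dissected brains of 3rd instar Drosophila melanogaster larvae. In this assay the bacterial methylase Dam, fused to a protein of interest, adds methyl groups to nearby GATC sequences, which records where that protein was. The fusion groups were Dam-Pros-FL, with full-length Prospero, Dam-Pros-ΔN7, with another form of it, and Dam-HP1a, with a heterochromatin protein. The last group was Dam alone, and 3 biological replicates are stated for each. All 4 groups share the driver GMR71C09-GAL4 and its temperature-sensitive brake Gal80ts, and DNA was taken from whole brains, so the driver sets which cells contribute. The series title names them as central brain neural precursors and neurons. A table of bound genes holds no expression values, so this cell type could not be checked against its markers. The table gives names and identifiers only, with no peak height, position or replicate value, and it is not stated which Prospero form it came from. Depth is therefore unknown, no difference between the groups could be tested, and being in the table or not in it is the only measurement per gene.

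Notch signalling passes between touching cells. A ligand on one cell binds the receptor on its neighbour, the receptor is cut, and its intracellular part enters the nucleus and joins a DNA-binding protein to switch on target genes. In the fly brain this pathway maintains self-renewal in some neuroblasts, the neural stem cells, and sets sister cells apart after division. Prospero is the homeodomain factor that enters the daughter of a neuroblast and drives it towards differentiation.

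The receptor gene was in the table. N (FBgn0004647), which encodes the single Notch receptor of the fly, had 1 entry. It lies on arm X and spans 37352 bp in the Release 6 plus ISO1 MT assembly of RefSeq, longer than 96.4% of protein-coding genes. Among genes of 34664 to 54287 bp, which include N, 66 of 279 (23.7%) were in the table.

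The ligand genes parted. Dl (FBgn0000463), which encodes the transmembrane ligand Delta, had 1 entry in the table, whereas Ser, which encodes Serrate, the other transmembrane ligand, was not in it. The genes are close in size and lie on the same arm, with 23487 bp for Dl and 22178 bp for Ser on 3R. When protein-coding genes were divided into 50 equal strata of length, both fell in the stratum of 18418 to 24277 bp, in which 62 of 279 genes (22.2%) were in the table. The table gives no value per gene, so how far apart binding at Dl and at Ser lay is not known.

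The genes that act on the ligand and on the sugars of the receptor were both in the table. neur (FBgn0002932) encodes an E3 ubiquitin ligase that drives endocytosis of Delta in the signalling cell, and had 1 entry. fng (FBgn0011591) encodes the glycosyltransferase that modifies the extracellular part of Notch and changes its response to Delta and Serrate, and also had 1 entry. neur spans 19124 bp on 3R and fng 23622 bp on 3L, which puts them in the same length stratum as the ligand genes. Of the 4 core genes in that stratum, Dl, fng and neur were in the table and Ser was not.

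The genes for the proteases that cut the receptor were not in the table. kuz encodes the ADAM metalloprotease that makes the ligand-dependent cut outside the membrane. Psn encodes Presenilin, the catalytic subunit of the gamma-secretase complex that makes the next cut within the membrane. They are the extremes of the core genes in size, with 89273 bp for kuz on 2L and 2689 bp for Psn on 3L. kuz is longer than 99.2% of protein-coding genes and fell in the longest of the 50 strata, in which 108 of 279 genes (38.7%) were in the table. Psn fell in a stratum in which 16 of 279 (5.73%) were, so the 2 absences stand against quite different backgrounds.

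Among the nuclear proteins, the co-activator gene was in the table and the genes of the DNA-binding protein and the co-repressor adaptor were not. mam (FBgn0002643) encodes Mastermind, which joins the Notch intracellular domain on DNA, and had 1 entry. It spans 69154 bp on 2R and is the longest core gene in the table, in the same length stratum as kuz. Su(H) encodes the protein through which the pathway binds DNA, and H encodes Hairless, which links that protein to co-repressors when there is no signal. Su(H) spans 3847 bp on 2L and H 6978 bp on 3R. In their length strata 12 of 279 genes (4.3%) and 32 of 278 (11.5%) were in the table.

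**Figure D1:**
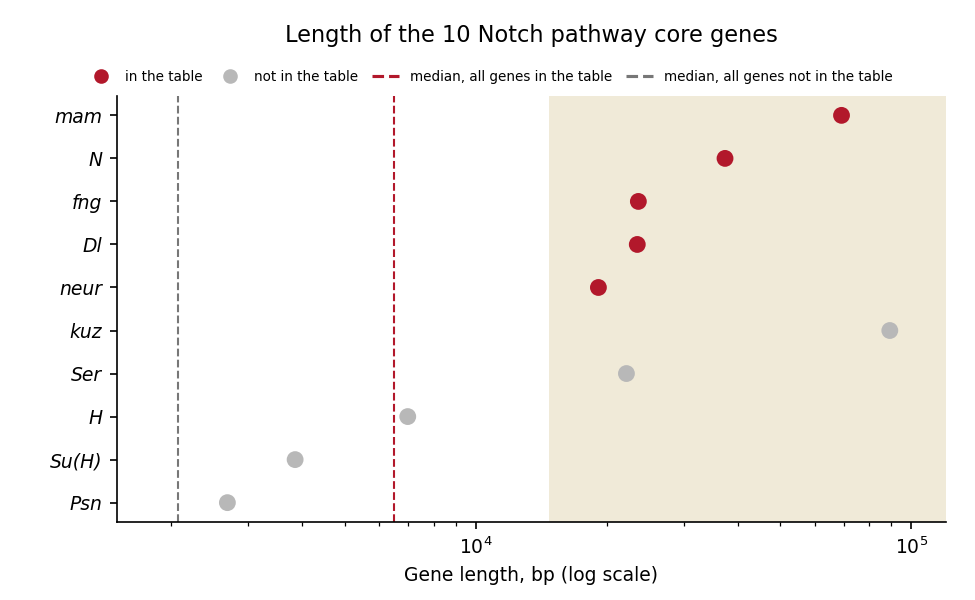
Length of each of the 10 core genes in bp on a log axis, with genes in the Prospero table in red above those not in it in grey, and the longest decile of protein-coding genes shaded. Dashed lines mark the median length of all protein-coding genes in the table (6486 bp) and not in it (2066 bp); the 5 core genes in the table lie between 19124 and 69154 bp, and those not in it run from 2689 to 89273 bp.

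Gene length went together with being in the table across all genes. Within the core the difference in length came from H, Su(H) and Psn, the only core genes below the longest decile. The 5 core genes in the table had a median length of 23622 bp and the 5 not in it 6978 bp, and the lengths overlapped, since kuz and Ser were as long as genes in the table. Over all protein-coding genes the medians were 6486 bp for the 1082 in the table and 2066 bp for the 12864 not in it. There were 7 core genes in the longest decile, which starts at 14719 bp and in which 26.2% of genes were in the table (exact 95% interval 23.9 to 28.6). Of these 7, N, Dl, fng, neur and mam were in the table and Ser and kuz were not. The share of that decile corresponds to 1.84 genes of 7. The remaining core genes, H, Su(H) and Psn, lay in deciles with shares of 12.6%, 5.31% and 5.02%, and none was in the table. Summed over the 10 core genes, the shares of their deciles come to 2.07 genes, against 0.776 when every protein-coding gene is counted alike. The count of 5 lies above both figures. No test was made, since the genes were chosen with results of this table known.

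**Figure D2:**
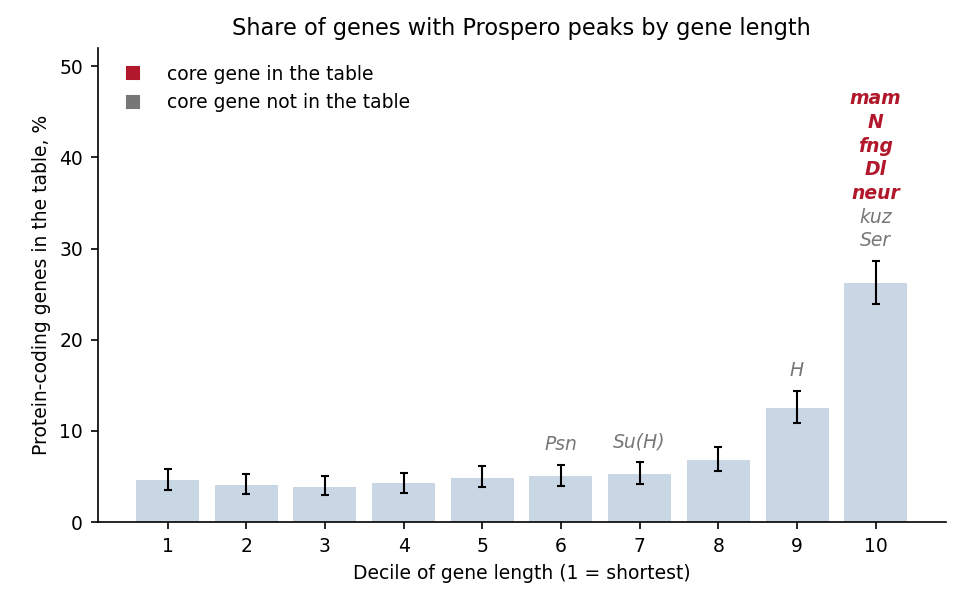
Percent of protein-coding genes in the Prospero table (bars, with exact 95% intervals that cover counting error only) by decile of gene length, with each core gene written above its decile, in red if in the table and grey if not. All 5 core genes in the table stand above the longest decile, where the share was 26.2%.

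Transcript number and open flanks were read from the same annotation. The core genes in the table had 1 to 5 RefSeq transcripts (median 3) and those not in it 2 to 5 (median 4). Over all protein-coding genes the medians were 2 in the table and 1 not in it. In the longest decile they were 5 in the table and 4 not in it. fng had 1 transcript, and neur, kuz and Psn had 5 each. Length together with the gaps to the nearest genes on both sides ran from 22485 bp (neur) to 69748 bp (mam) for core genes in the table. For those not in the table it ran from 3888 bp (Psn) to 90118 bp (kuz). Its median was 16566.5 bp for all protein-coding genes in the table and 5682 bp for those not in it. In the longest decile these medians were 42815.5 and 36287 bp. The gene with the widest open flank was Ser, with 22036 bp to the nearest gene on one side and 4967 bp on the other, and it was not in the table. Dl had 5035 and 598 bp. N had little open space, with 337 and 46 bp, and was in the table. Across all protein-coding genes the median gaps on the 2 sides were 1174.5 and 1207.5 bp in the table and 639.5 and 630 bp not in it. In the longest decile they were 1069.5 and 1167 bp in the table and 1228 and 1233 bp not in it.

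By chromosome arm, 1 core gene in the table lay on X, 1 on 2R, 1 on 3L and 2 on 3R, and those not in it lay on 2L (kuz and Su(H)), 3L (Psn) and 3R (Ser and H). Neither core gene on 2L was in the table, which for 2 genes lies close to the background. Of all protein-coding genes on that arm 6.29% were in it, the lowest share of the 5 large arms, where the others were 7.46% on X, 7.59% on 3R, 8.28% on 2R and 9.09% on 3L.

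Genes in the table often lay side by side. The rule that assigned peaks to genes is not stated, so neighbours entered for the same peak cannot be told apart from neighbours with peaks of their own. For each core gene the genes that overlap it and the nearest gene on either side, non-coding genes included, were read from the RefSeq table, a choice made after the data were seen. N, fng and neur, 3 of the 5 core genes in the table, had another entry among these. Such an entry was found for 61.5% of the longest-decile genes in the table (225 of 366) and for 78.4% of those of any length (848 of 1082), so the count is near the background. Of the 5 core genes not in the table only kuz had one, beside 11.1% of the longest-decile genes outside the table and 11.5% of such genes of any length.

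N lies 337 bp from kirre (FBgn0028369), a gene of 394149 bp that was also in the table. kirre encodes an immunoglobulin-family adhesion protein. On the other side of N, CG18508 lies 46 bp away and was not in the table.

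neur overlaps 2 genes that were both in the table. asRNA:CR31429 (FBgn0063298) is an antisense RNA gene of 1962 bp that lies wholly within the span of neur. It had 4 entries, 1 gene identifier and 3 transcript identifiers. hyx (FBgn0037657) overlaps the edge of neur and had 1 entry. The flanking genes tgo, which encodes a bHLH-PAS factor, and Nmdmc were not in the table. DamID does not read the strand, and the table does not say whether neur and these overlapping genes were entered for the same peak or for separate ones.

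Next to fng, the long non-coding RNA gene lncRNA:CR45243 (FBgn0266778) lies 846 bp away and was in the table. The nearest gene on the other side, lncRNA:CR43929, and CG10589, which lies within the span of fng, were not.

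Dl and mam had no entry next to them. The nearest genes to Dl, CG44174 at 5035 bp and lncRNA:CR44175 at 598 bp, were not in the table. For mam, RN-tre at 495 bp, Prosap at 99 bp, and mir-4978 and CG18371 within its span were not in it either.

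Of the core genes not in the table, kuz lies 810 bp from B4 (FBgn0023407), a gene of 48705 bp that was in it. The gene on the other side of kuz, ics, and the 4 genes within its span were not. None of the genes overlapping or flanking Ser (spn-D and lncRNA:CR34006), Psn (Las, CtIP and the overlapping mRpL15), Su(H) (CIAPIN1 and ck) or H (CG5466 and Pi3K92E) was in the table.

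The genes were also counted in order of their start, which passes over a long gene that starts far off and ends close by, as kirre does beside N and B4 beside kuz. Counted so, only neur of the 5 core genes in the table had an entry directly before or after it, beside 47% of the longest-decile genes in the table (172 of 366) and 70.2% over all lengths (760 of 1082). None of the 5 outside the table had one, beside 5.93% and 7.45% of genes outside the table. Within 5 genes in that order on either side, 3 of the 5 core genes in the table had an entry, beside 70.8% of the longest-decile genes in the table and 85.5% of those of any length. For N this entry was rst (FBgn0003285), 161035 bp away, and not kirre, which this order passes over. Of the 5 core genes outside the table only Su(H) had such an entry, vas (FBgn0283442), the germline RNA helicase gene, 18321 bp away. The background was 28.5% of the longest-decile genes outside the table and 31.2% of those of any length. In all, 4 of the 50 genes so placed around core genes in the table were in it (8%), and 1 of the 50 around the others (2%). The share of all annotated genes was 8.45%, wherever they lie. The share among genes so placed around all genes in the table was not computed.

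**Figure D3:**
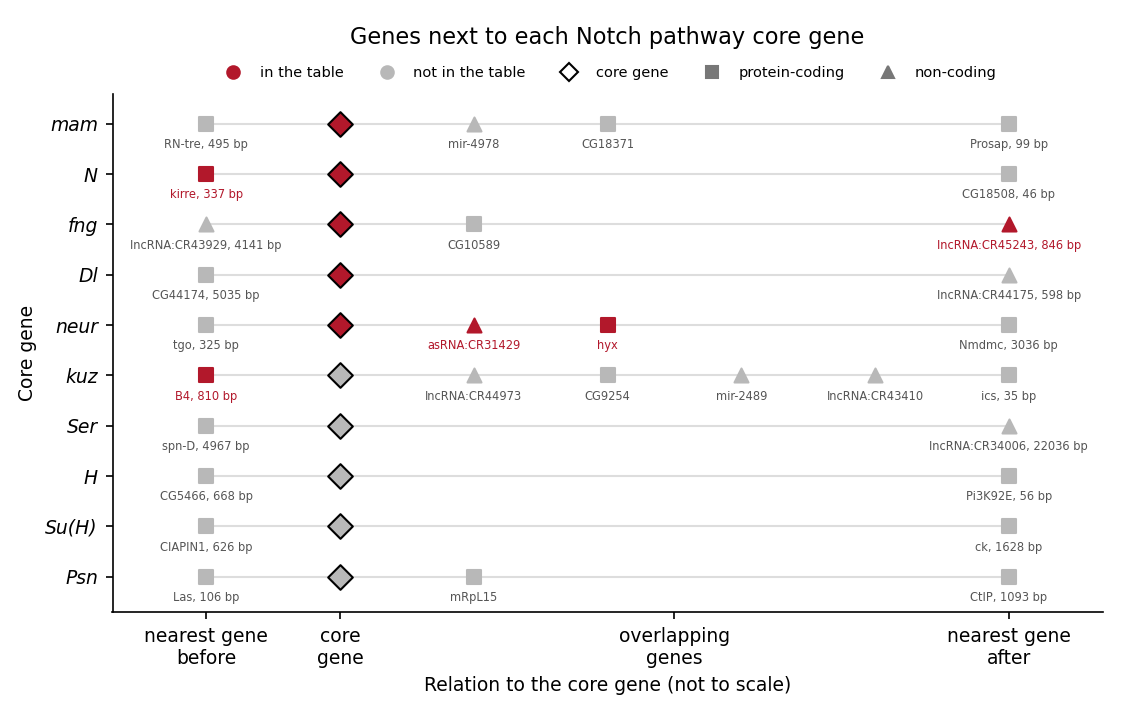
The genes that overlap each core gene and the nearest gene before and after it (columns, not to scale, with the distance in bp for flanking genes), with core genes in the Prospero table in the upper 5 rows. Red symbols and names are in the table and grey ones are not; squares are protein-coding and triangles non-coding genes, and N, fng, neur and kuz have a red symbol beside them.

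The rest of the pathway was read by role from a list of 43 genes, of which 16 were in the table, beside 3.91 from the shares of their length deciles. None of the 10 genes for receptor processing, glycosylation and ligand endocytosis was. They are the gamma-secretase subunits Nct, aph-1 and pen-2, the ADAM proteases Tace and Kul, the enzymes O-fut1, rumi and shams, which add sugars to Notch, and mib1 and lqf, which act in ligand endocytosis. With kuz and Psn, all 7 protease and gamma-secretase genes examined were outside the table. The decile shares come to 0.131 genes for Nct, aph-1 and pen-2 and 0.179 for Tace and Kul. They are 26.2% for kuz and 5.02% for Psn, so the absence of these 7 also lies close to the background. The 10 genes for processing, glycosylation and endocytosis had a median length of 2514 bp, from 1049 bp for aph-1 to 11233 bp for lqf. The shares of their length deciles come to 0.636 genes, so a count of 0 lies close to the background.

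Regulators of the receptor and of the nuclear complex were divided. Of the 8 genes for receptor trafficking and turnover, 2 were in the table, numb (FBgn0002973) and spdo (FBgn0260440). numb encodes the inhibitor of Notch that is placed in 1 daughter of a dividing precursor, and spdo the membrane protein that Numb acts on. dx, Su(dx), Nedd4, krz, lgd (l(2)gd1 in RefSeq) and AP-2alpha were not in the table. Of 7 nuclear co-factors, the co-repressor genes gro (FBgn0001139) and Smr (FBgn0265523) and the Mediator kinase module gene skd (FBgn0003415) were in it. CtBP, the histone acetyltransferase gene nej, kto, which encodes the partner of the skd product, and insv were not. sca, which encodes a secreted modulator, was not in the table either. The shares of the length deciles come to 1.07 genes for trafficking and 1.21 for the co-factors, beside the counts of 2 and 3.

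Among genes of the kind that Notch activates, most of those in the table lay in the Enhancer of split complex. Of the 7 bHLH repressor genes of the Enhancer of split complex, 6 were in the table, all but E(spl)m3-HLH. The genes are short (769 to 1305 bp) and the shares of their deciles come to 0.284 genes. That sum counts each gene alone, whereas these genes lie close together. Over all lengths, 70.2% of protein-coding genes in the table had an entry directly beside them. The related repressor genes dpn (FBgn0010109) and Hey (FBgn0027788) were both in it, beside 0.106 genes from their deciles. In the Bearded family, small proteins that inhibit Neuralized, 3 of 8 were in the table, beside 0.338 from their deciles, and all 3 (E(spl)malpha-BFM, E(spl)m2-BFM and E(spl)m6-BFM) lie in the Enhancer of split complex. Its member E(spl)m4-BFM was not in the table, nor were Brd, Tom, BobA and Ocho on 3L. From E(spl)mdelta-HLH to gro, at the other end of the complex, 16 of 19 consecutive annotated genes were entries, and the table does not show how many peaks lie behind them. Without the Enhancer of split bHLH and Bearded family genes, 7 of 28 other pathway genes were in the table, beside 3.29 from the shares of their deciles. These 7 still include gro, at the end of the complex.

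**Figure D4:**
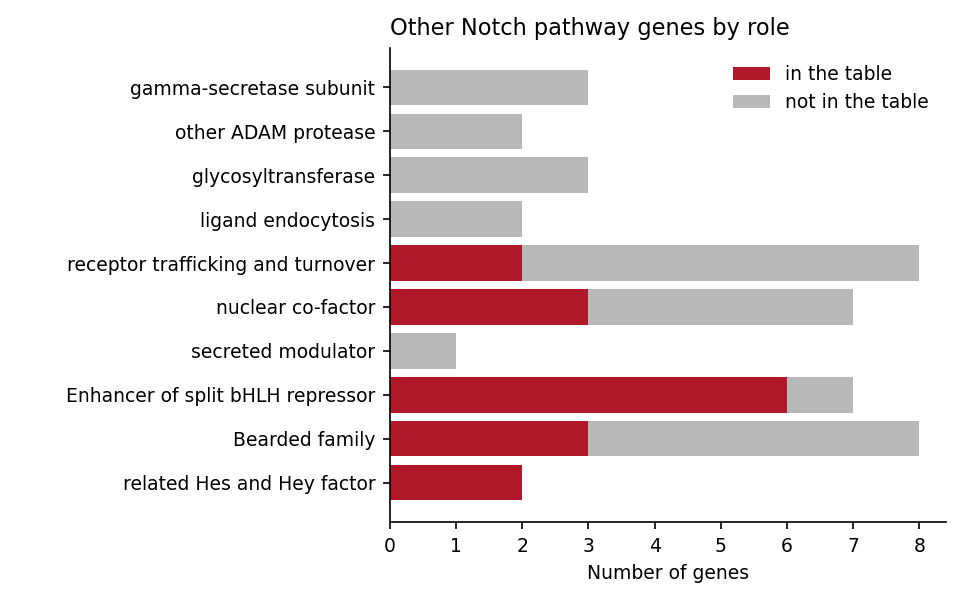
Number of other Notch pathway genes in the Prospero table (red) and not in it (grey) for each role, excluding the 10 core genes. The Enhancer of split repressors have 6 of 7 in the table, and the 4 roles of receptor processing, glycosylation and ligand endocytosis have none.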

How the data were processed

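The data analysed were 1 table of gene names, FlyBase identifiers and symbols, with no numeric column. The authors set each fusion against Dam alone and averaged the profiles, per the labels. The sources used here do not give the aligner, peak caller, threshold, build or rule for assigning genes. The deposited table held 1584 entries, 1512 with a gene identifier and 72 with a transcript identifier. Entries were matched to the RefSeq gene table of Release 6 plus ISO1 MT by current symbol (1457) or by an earlier symbol (50), and 5 were unmatched, giving 1504 genes. Dl is named Delta there. Arms, lengths and gene order come from that assembly as properties of genes, and no coordinates are printed. Deciles and 50 strata divide protein-coding genes by length. Gaps run to the nearest gene that does not overlap. Shares carry exact Clopper-Pearson 95% intervals, for counting error only. All core genes, their neighbours in gene order and by distance, and every gene of the pathway list were named. The members, lists and alternatives were chosen with earlier results of these data known, and no set test was made. A gene not in the table is one not among the entries analysed here. The matching and neighbour steps were tested on simulated data. Python 3.11.15, pandas 2.3.3, scipy 1.17.1, numpy 2.4.6 and matplotlib 3.10.9 were used.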

Additional observations from a re-analysis of the deposited data

How the results depend on the processing

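The count of 5 core genes in the table was the same by Symbol alone, by Gene name alone, by gene identifiers alone and through older symbols. The background did depend on its definition. It was 7.76% of protein-coding genes, 8.45% of all annotated genes, 20.7% averaged over the length deciles of the core genes, and, in settings chosen after seeing the data, 21.2% over 50 length strata and 14.4% over deciles of length plus flanking gaps. The number of core genes in the table with an entry beside them was 1 among direct neighbours, of all genes or of protein-coding genes only, and 3 among the nearest 5 on either side. By distance, with overlapping genes and the nearest flanking gene read after the data were seen, it was also 3. The entries behind these 2 counts differ, since for N it was kirre by distance and rst among the nearest 5. Order of start passes over kirre beside N and places CG10589 between fng and lncRNA:CR45243. The other pathway genes in the table numbered 16, and 7 without the Enhancer of split bHLH and Bearded family genes. The 7 still include gro, which lies at the end of the Enhancer of split complex. No paired analysis was possible because the table carries no values per replicate. Binding strength, peak position and reproducibility between replicates could not be assessed, and depth is unknown.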
